A study of Mus musculus with 34 samples.

Results

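Macrophages of LLC tumors were compared with monocytes from the spleens of mice bearing the same tumors, with the monocytes of the tumors placed between them. LLC is the Lewis lung carcinoma line, which grows as a transplanted tumor in C57/Bl6 mice. The members are the 12 bulk RNA-seq libraries whose titles name these populations, 4 of tumor macrophages, 4 of tumor monocytes and 4 of spleen monocytes, out of 34 libraries in the series. The other libraries used here are 8 of macrophages and spleen monocytes from mice with MC38 tumors, another transplanted mouse line, and 7 of bone marrow monocytes kept in culture, 3 with LLC supernatant and 4 as controls. The labels call the first group macrophages of the LLC tumor and name no gate for them. They describe the tumor monocytes by the presence of Ly6C and CD88 and the absence of Sca1, and the spleen monocytes by Ly6C alone. All 12 libraries came from C57/Bl6 mice that carried an LLC tumor, so that no tumor-free animal enters these comparisons, and the labels used here name no further genotype or drug. Nothing in the labels states that the 4 replicates of a group were separate animals, so the p-values measure the spread between these samples.

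Classical monocytes leave the bone marrow, circulate and are stored in the spleen, carry high Ly6C and CCR2, and can enter inflamed tissue or tumors. There they can lose these proteins and take on a macrophage state with complement C1q, scavenger receptors and lysosomal enzymes. Monocytes that have just entered a tissue meet low oxygen, interferons and inflammatory ligands, and their gene expression at that point need not lie between the states before and after. The 3 populations are separate sorted samples, not a followed time course. The comparison of tumor with spleen monocytes is called the first step here, and that of tumor macrophages with tumor monocytes the second step. The whole change is tumor macrophages over spleen monocytes.

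The 12 libraries held 13198843 to 24600975 counts over 13475 to 15018 detected genes. Levels are given as CPM, counts scaled to a common library size with TMM, the trimmed mean scaling of edgeR, and fold changes as log2 values with their standard errors from edgeR's quasi-likelihood fit. A gene was called, and is said to have risen or fallen, at a Benjamini-Hochberg adjusted p under 0.05 over all 13200 genes tested. Of the sorting markers, Ly6c2 averaged 17.9 ± 5.73 CPM in tumor macrophages, 920.2 ± 32.3 CPM in tumor monocytes and 675 ± 96.04 CPM in spleen monocytes (SD, n = 4 each), although it shares reads with its near copy Ly6c1. C5ar1, which encodes CD88, had 392 to 495 CPM in tumor macrophages, 586 to 600.0 CPM in tumor monocytes and 30.4 to 47.98 CPM in spleen monocytes. Adgre1, which encodes the macrophage marker F4/80, had 347 to 429 CPM in tumor macrophages, 237 to 278 CPM in tumor monocytes and 229 to 315 CPM in spleen monocytes. Ly6a, which encodes the Sca1 that the tumor monocyte gate excludes, had 131, 86.9, 161 and 184 CPM in tumor macrophages, 38.9, 29.5, 37.9 and 39.6 CPM in tumor monocytes and 7.82, 11.7, 69.99 and 8.55 CPM in spleen monocytes. It was thus present in the tumor monocyte libraries: their first step was 0.55 ± 0.53 log2 and was not called (edgeR adjusted p 0.38), but was 1.95 and called without spleen monocyte replicate 3 (edgeR adjusted p 5.35e-05). Replicate 3 of the spleen monocytes stood apart from the other 3: 36 genes exceeded 3 times the highest of the others (values plus 1 CPM), against at most 5 genes in any other of the 12 libraries. Of those 36 genes, 32 were higher in tumor macrophages than in spleen monocytes, so values without that library are given wherever they differ by more than 1.5 times or change a call. In bulk RNA, fewer cells of a type and less RNA per cell cannot be told apart.

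The whole change involved most of the transcriptome, and by the median over the called genes the first step held the larger part of it. Of 13200 genes 64.6% were called in the whole change, 62.6% in the first step and 55.5% in the second. In the whole change 4365 (33.1%) were higher and 4162 (31.5%) lower in tumor macrophages than in spleen monocytes. In the first step 3775 genes (28.6%) were higher and 4488 (34%) lower in tumor monocytes than in spleen monocytes. In the second step 3859 genes (29.2%) were higher and 3471 (26.3%) lower in tumor macrophages than in tumor monocytes. Over the 4365 genes higher in the whole change, the first step carried a median of 64.8% of the log2 change, and over the 4162 lower genes 70.3%; both quantities use the same spleen libraries. The first step went past the final level in 1321 of the higher and 1292 of the lower genes. It went the other way in 892 and 666, and was between 0 and 100% of the whole change in 2152 and 2204.

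**Figure D1:**
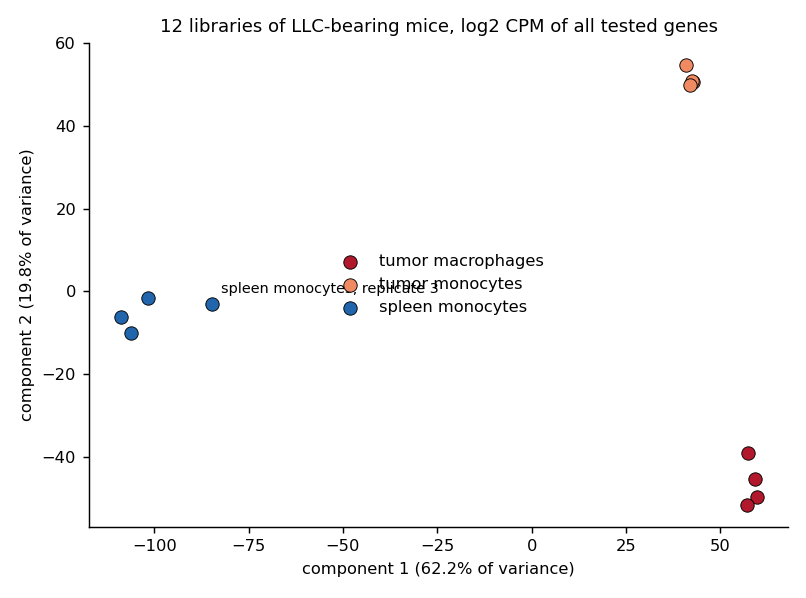
Principal components of log2 CPM over all tested genes for the 12 libraries (points; color, population; axes, component scores with their share of variance). Component 1 separates both tumor populations from the spleen monocytes, component 2 separates all 3 populations, with the spleen monocytes between tumor macrophages and tumor monocytes, and spleen monocyte replicate 3 lies nearest to the tumor libraries.

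The principal components showed the same layout. The first, with 62.2% of the variance, separated both tumor populations from the spleen monocytes, and the second, with 19.8%, ran from tumor macrophages through spleen monocytes to tumor monocytes, with no overlap.

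Genes that turned in tumor monocytes outnumbered genes that changed steadily. A steady change was called in both steps in the same direction: 653 genes (4.95%) rose and 841 (6.37%) fell in both. A turn was called in both steps in opposite directions: 1735 genes (13.1%) peaked in tumor monocytes and 1941 (14.7%) dipped there. With at least a 2-fold change in both steps, 172 genes (1.3%) rose steadily, 136 (1.03%) fell steadily, 374 (2.83%) peaked and 446 (3.38%) dipped. The libraries of adjacent populations did not overlap at either step for 523 of the steady rises, 687 of the steady falls, 1535 of the peaks and 1482 of the dips. Among all 13200 genes this held for 4735. The patterns were called on these same libraries, so the lack of overlap is no separate support for them. A further 1387 genes (10.5%) rose and 1706 (12.9%) fell in the first step only, while 1265 (9.58%) rose and 895 (6.78%) fell in the second step only. Both steps use the tumor monocyte libraries, so an error shared by those 4 libraries enters a peak or dip in both steps and works against a steady change. The TMM scaling factors were 1.03 to 1.04 in tumor macrophages, 0.845 to 0.861 in tumor monocytes and 1.02 to 1.06 in spleen monocytes. Which of the turning patterns was larger depended on the scaling: 1989 peaks and 1721 dips with RLE scaling, and 1293 peaks and 2733 dips with upper quartile scaling. Upper quartile scaling put the median second step of all genes at 0.21 log2, against 0.06 with TMM, and 66.1% of the second step calls then were rises, against 52.6%. Without spleen monocyte replicate 3 there were 608 steady rises, 763 steady falls, 1712 peaks and 1797 dips, of which 581, 761, 1666 and 1777 genes were in the same class with it. None of the genes of a class moved into the class of the opposite shape under any alternative run.

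**Figure D2:**
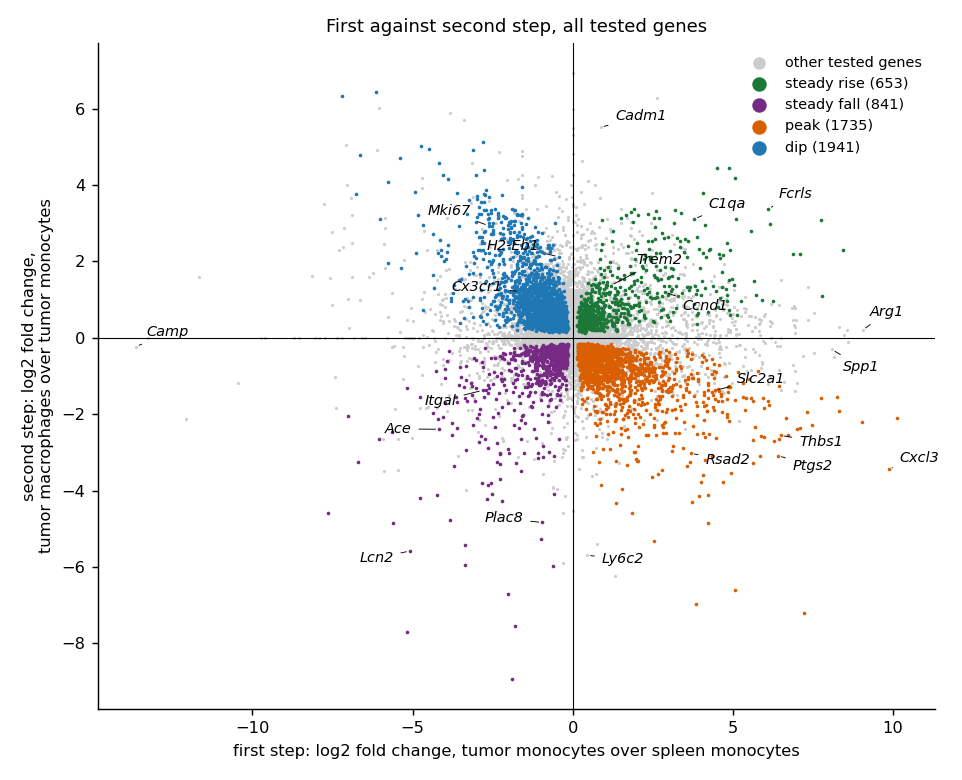
Each point is 1 of 13200 tested genes; the horizontal axis is the log2 fold change of tumor monocytes over spleen monocytes and the vertical axis that of tumor macrophages over tumor monocytes, with color for genes called in both steps. Macrophage genes such as C1qa lie upper right, monocyte genes such as Ace and Plac8 lower left, inflammatory and hypoxia genes such as Ptgs2 and Slc2a1 lower right, and Mki67 and Cx3cr1 upper left.

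Core macrophage genes were often steady rises. Of 30 core macrophage genes, 24 were higher and 3 lower in tumor macrophages than in spleen monocytes, with a median log2 change of 2.98 against 0.03 over all tested genes. Of these 30, 13 rose in both steps, against 4.95% of all genes, 4 rose in the first step only and 5 peaked in tumor monocytes. Among all genes 33.1% were higher and 31.5% lower in the whole change, 10.5% rose in the first step only and 13.1% peaked. C1qa, a chain of the complement initiator C1q, had 1679, 1440.3, 1741 and 1545 CPM in tumor macrophages, 208, 159.7, 217 and 159.8 CPM in tumor monocytes and 2.26, 3.07, 44.02 and 3.07 CPM in spleen monocytes. The 3 populations did not overlap, and spleen monocyte replicate 3 was far above the other spleen libraries. C1qa rose by 3.79 ± 0.69 log2 in the first step and by 3.11 ± 0.66 in the second (edgeR adjusted p 9.49e-05 and 0.000564), and the first step was 6.04 without that library. C1qb and C1qc, the other chains, rose by 2.64 ± 0.49 and 2.96 ± 0.50 log2 in the second step. Fcrls, an Fc receptor-like scavenger gene known from mouse microglia, had 344, 238, 359 and 186 CPM in tumor macrophages, 36.2, 24.2, 33.8 and 15.6 CPM in tumor monocytes and 0.517, 0.245, 0.618 and 0.134 CPM in spleen monocytes. It is one of the largest rises of the whole change by the fitted value, 9.47 ± 0.58 log2. Trem2, a lipid-sensing receptor of macrophages, had 229, 203, 263 and 237 CPM in tumor macrophages, 101, 80.9, 103 and 76.9 CPM in tumor monocytes and 38.1, 45.04, 38.2 and 36.5 CPM in spleen monocytes. Its steps were 1.19 ± 0.13 and 1.37 ± 0.13 log2, and the populations did not overlap.

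Some receptors and ligands of dead cell uptake and lipid transport rose steadily, while others of that list turned in tumor monocytes. Mertk, a receptor kinase that recognizes dying cells, had 43.6 to 50.8 CPM in tumor macrophages, 16.5 to 22.8 CPM in tumor monocytes and 0.601 to 3.75 CPM in spleen monocytes. Gas6, a bridging ligand of that receptor, had 30.2 to 54.8 CPM in tumor macrophages, 4.23 to 5.81 CPM in tumor monocytes and 0.0646 to 0.206 CPM in spleen monocytes. Gas6 and Mertk thus both rose in each step, by 5.09 ± 1.27 and 3.11 ± 0.71 log2 for Gas6 and by 3.63 ± 0.50 (4.67 without spleen monocyte replicate 3) and 1.25 ± 0.40 for Mertk. Apoe, the apolipoprotein that carries lipid out of macrophages, rose by 0.89 ± 0.11 and 0.601 ± 0.11. Folr2, a folate receptor of tissue macrophages, had 85.3 to 111 CPM in tumor macrophages, 13.3 to 15.8 CPM in tumor monocytes and 0 to 0.824 CPM in spleen monocytes, with a first step of 5.56 ± 0.59 log2 (7.50 without spleen monocyte replicate 3). Hpgds, a prostaglandin D synthase, and Cd81, a tetraspanin, made most of their rise in the second step, by 3.21 ± 0.21 and 3.09 ± 0.34 log2 against 2.04 ± 0.27 and 0.91 ± 0.35 in the first. Without spleen monocyte replicate 3 the first step of Cd81 was 0.90 and was not called (edgeR adjusted p 0.055), and the adjusted p was up to 0.084 over all alternatives, without tumor monocyte replicate 3. Of 28 genes of lipid handling and dead cell uptake, 14 were higher and 6 lower in the whole change, and 5 rose steadily, where the shares over all genes were 33.1%, 31.5% and 4.95%. A further 5 of the 28 peaked and 4 dipped, where the shares over all genes were 13.1% and 14.7%.

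Some steady rises were not macrophage genes by name. Cspg4, the proteoglycan NG2 known from pericytes and glial progenitors, had 25.2, 26.98, 23.4 and 13.4 CPM in tumor macrophages, 1.497, 0.621, 1.74 and 0.401 CPM in tumor monocytes and 0.194, 0, 0 and 0 CPM in spleen monocytes. With 3 counts over the 4 spleen libraries its whole change was a ratio of 607.4 with a counting interval of 207.5 to 2948.3. Col14a1, a fibril-associated collagen, had 53.4 to 94.2 CPM in tumor macrophages, 3.03 to 6.51 CPM in tumor monocytes and 0.0668 to 0.258 CPM in spleen monocytes. Nes, an intermediate filament of progenitor and endothelial cells, had 14.5 to 22.7 CPM in tumor macrophages, 1.23 to 2.63 CPM in tumor monocytes and 0 to 0.453 CPM in spleen monocytes. Without spleen monocyte replicate 3 the first step of Nes was 4.27 log2, against 3.19 ± 0.72 with it. The summed level of the 15 tested fibroblast and endothelial markers was 36.8 to 61.3 CPM in tumor macrophages, 56.2 to 86.5 CPM in tumor monocytes and 30.9 to 48.1 CPM in spleen monocytes, so it did not rise with these genes in the second step. Of those markers 4 were higher and 5 lower in the whole change, where the shares over all genes were 33.1% and 31.5%. Cdh1, the epithelial cadherin, had 90.6, 89.2, 96.6 and 139.9 CPM in tumor macrophages, 45.2, 39.9, 41.6 and 63.3 CPM in tumor monocytes and 0.8399, 0.777, 0.948 and 1.07 CPM in spleen monocytes. The 4 tested epithelial markers summed to 92.4 to 144.5 CPM in tumor macrophages, 42.1 to 67.2 CPM in tumor monocytes and 5.19 to 6.3 CPM in spleen monocytes, nearly all of it Cdh1, and the part of tumor cell RNA in this was not tested.

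Cyclin D genes rose steadily too, unlike the rest of the cell cycle list described further on. Ccnd1, the cyclin that opens G1, had 203, 169, 189 and 169 CPM in tumor macrophages, 91.3, 70.4, 86.5 and 70.5 CPM in tumor monocytes and 9.304, 5.11, 21.2 and 7.68 CPM in spleen monocytes. The populations did not overlap, and its steps were 2.86 ± 0.37 and 1.196 ± 0.34 log2 (first step 3.45 without spleen monocyte replicate 3). Ccnd2, another D cyclin, rose by 2.39 ± 0.50 and 1.196 ± 0.46, and its second step lost its call in 9 alternatives, with an edgeR adjusted p of up to 0.090 without tumor monocyte replicate 4. Cxcl16, a membrane-bound chemokine and scavenger receptor, rose by 3.296 ± 0.40 (3.98 without that library) and 1.56 ± 0.37, and Bhlhe41, a transcription factor of resident macrophages, by 2.58 ± 0.71 and 2.901 ± 0.57.

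Steady falls included markers of both monocyte subsets. Ace, angiotensin-converting enzyme, which nonclassical monocytes carry, had 14.8, 13.4, 15.8 and 32.04 CPM in tumor macrophages, 91.6, 86.2, 96.2 and 125 CPM in tumor monocytes and 1652, 1833, 1855 and 1829 CPM in spleen monocytes. The populations did not overlap, and Ace fell in both steps, with changes of -4.17 and -2.395 log2 (edgeR adjusted p 2.84e-11 and 1.26e-07). Itgal, the alpha chain of the integrin LFA-1, had 110.5, 113, 112 and 126 CPM in tumor macrophages, 288, 297, 297 and 312 CPM in tumor monocytes and 1932, 2345, 2161 and 1933 CPM in spleen monocytes. Treml4, a further nonclassical gene, fell in both steps, with changes of -3.29 and -1.65. Of 15 nonclassical monocyte genes, 4 were higher and 8 lower in the whole change, with 4 steady falls and 4 dips, where the shares over all genes were 33.1%, 31.5%, 6.37% and 14.7%. Their high level in the spleen libraries stood beside high Ly6c2, and what share of the sorted cells each subset made up was not tested.

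Classical monocyte genes had no common direction in the first step and fell in the second. Of 22 such genes, 16 were lower and 3 higher in tumor macrophages than in spleen monocytes, against 31.5% and 33.1% of all genes. In the second step 20 of the 22 genes fell, against 26.3% of all genes. In the first step 7 were higher and 9 lower, where the shares over all genes were 28.6% and 34%. Ly6c2 itself differed by 0.45 ± 0.21 log2 in the first step (edgeR adjusted p 0.065; 0.55 and 0.040 without spleen monocyte replicate 3) and fell in the second, with a change of -5.69. Plac8, a small lysosomal protein of monocytes, had 39.1, 26.7, 51.7 and 74.8 CPM in tumor macrophages, 1319, 1221, 1407 and 1531 CPM in tumor monocytes and 2393, 2871, 2868 and 2451 CPM in spleen monocytes. Plac8 fell in both steps, with changes of -0.95 and -4.83 log2, and the populations did not overlap. F5, coagulation factor V, fell in the second step with no first step call, at 2.99 to 4.04 CPM in tumor macrophages, 74.2 to 94.1 CPM in tumor monocytes and 76.5 to 87.4 CPM in spleen monocytes. Ccr2, the chemokine receptor that brings monocytes out of the marrow, had 1033 to 1606 CPM in tumor macrophages, 1499 to 1746 CPM in tumor monocytes and 970.2 to 1125 CPM in spleen monocytes. Its whole change of 0.24 ± 0.12 log2 was not called (edgeR adjusted p 0.071), and its change of -0.36 in the second step, a fall, was not called with upper quartile scaling.

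Granule genes of neutrophils and their precursors were among the largest falls of the whole change. All 18 tested genes of that list were lower in tumor macrophages than in spleen monocytes, 13 of them in both steps, with a median log2 change of −9.02. Among all genes 31.5% were lower in the whole change and 6.37% fell in both steps. The summed level of the 18 genes was 64.5 to 86.1 CPM in tumor macrophages, 341.7 to 447.7 CPM in tumor monocytes and 3997 to 6129 CPM in spleen monocytes. Lcn2, the iron-binding granule protein lipocalin, had 0, 0.2298, 0.331 and 0.258 CPM in tumor macrophages, 6.78, 8.999, 6.13 and 13.3 CPM in tumor monocytes and 223, 334, 376 and 281 CPM in spleen monocytes. Camp, cathelicidin, had 213 to 358 CPM in spleen monocytes but 1 count over the 4 libraries of either tumor population. Fcnb, ficolin B, had no count in tumor macrophages, and was at least 34.3-fold lower there than in tumor monocytes and at least 1296-fold lower than in spleen monocytes, taking 3 counts over the group as the floor. Ly6g, which defines mature neutrophils, was at 0.04596 to 0.581 CPM in tumor macrophages, 1.23 to 2.02 CPM in tumor monocytes and 1.68 to 3.96 CPM in spleen monocytes. Without spleen monocyte replicate 3, 11 of the 18 genes fell in both steps, Ly6g not among them. The part of neutrophil or precursor RNA in the spleen libraries was not tested. Jchain, a plasma cell gene, had no count in either tumor population and 41.8 to 86.6 CPM in spleen monocytes, and the 11 tested T and NK cell markers summed to 5.49 to 7.82 CPM in tumor macrophages, 4.55 to 5.3 CPM in tumor monocytes and 49.7 to 74.5 CPM in spleen monocytes.

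**Figure D3:**
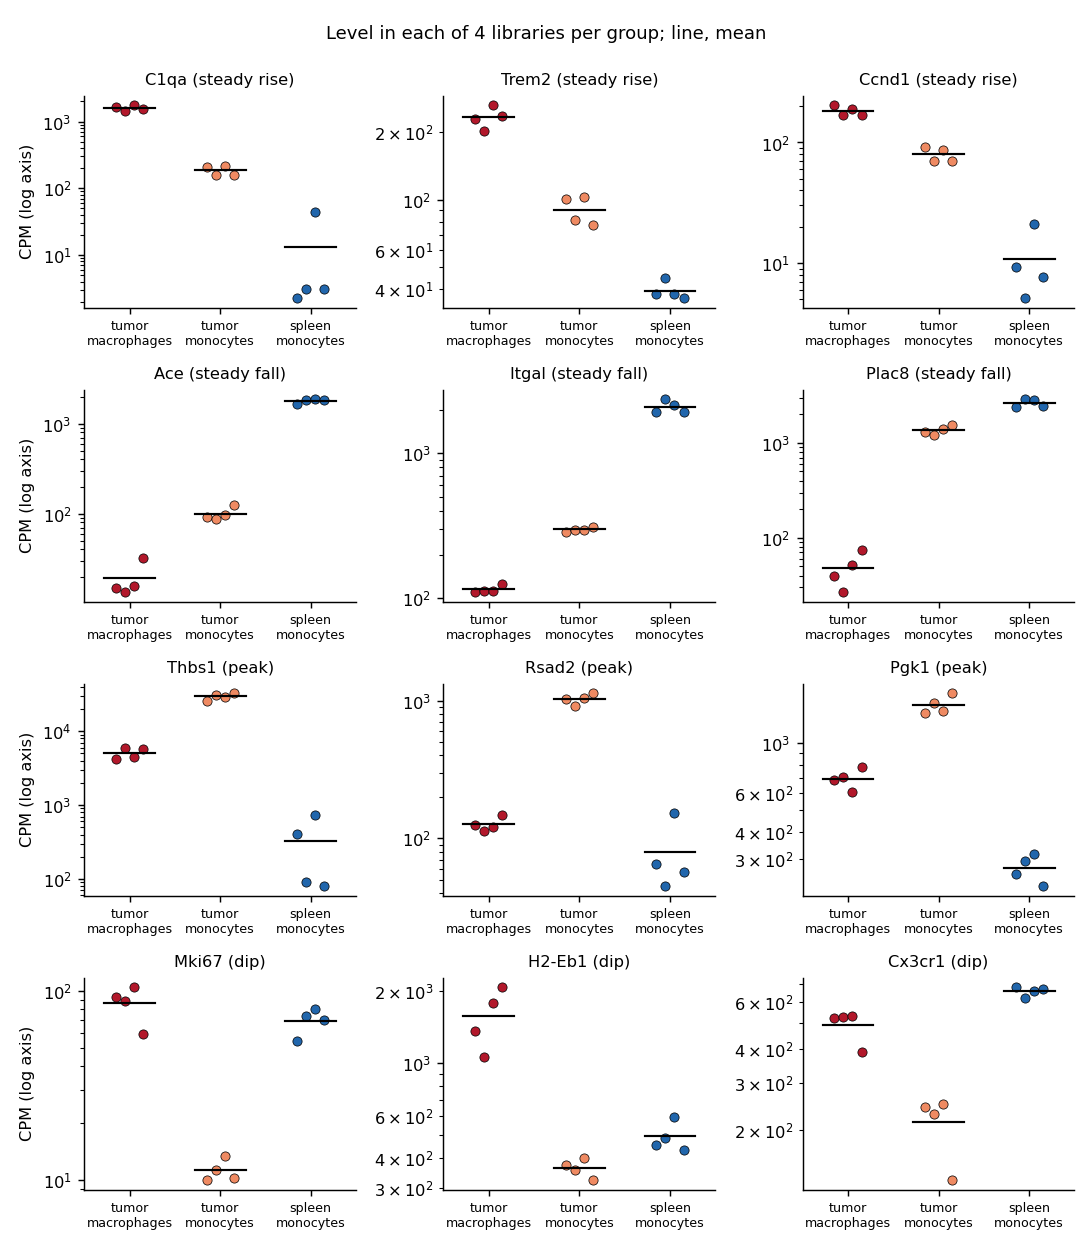
CPM on a log axis for 12 genes in each of 4 libraries (points) of tumor macrophages, tumor monocytes and spleen monocytes; lines are group means, and each row of panels shows 1 pattern. C1qa, Trem2 and Ccnd1 step up toward the macrophages, Ace, Itgal and Plac8 step down, Thbs1, Rsad2 and Pgk1 are highest and Mki67, H2-Eb1 and Cx3cr1 lowest in tumor monocytes, with spleen monocyte replicate 3 above its group in C1qa and Rsad2.

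Several of the largest rises were called in the first step and not in the second. Arg1, arginase 1, which consumes extracellular arginine, had 1378, 1663, 1364 and 2688 CPM in tumor macrophages, 1228, 1428, 1159 and 2359.8 CPM in tumor monocytes and 1.098, 0.245, 8.903 and 0.601 CPM in spleen monocytes. Both tumor populations lay far above the spleen monocytes and overlapped each other. Its first step was 9.06 ± 0.92 log2 (11.32 without spleen monocyte replicate 3) and its second 0.200 ± 0.63 (edgeR adjusted p 0.81). Spp1, osteopontin, had 1555, 1585, 1483 and 1374 CPM in tumor macrophages, 1974, 1883, 1951 and 1598 CPM in tumor monocytes and 3.04, 1.76, 19.9 and 1.54 CPM in spleen monocytes, with a first step of 8.09 ± 0.93 (9.79 without that library). Each tumor macrophage library lay below each tumor monocyte library for Spp1, but the second step of -0.305 ± 0.67 was not called (edgeR adjusted p 0.73). Mrc1, the mannose receptor CD206, rose by 5.704 ± 0.38 in the first step and C3ar1, the receptor for complement C3a, by 5.83 ± 0.81 (7.70 without that library), with second steps of 0.29 ± 0.30 and 0.17 ± 0.65 that were not called.

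Chemokine and matrix genes were mostly higher in both tumor populations. Of 21 chemokine genes, 20 were higher and 1 lower in the whole change, against 33.1% and 31.5% of all genes, with a median of 4.59 log2. Among them 8 rose in the first step only, 7 peaked and 4 rose steadily, where the shares over all genes were 10.5%, 13.1% and 4.95%. Cxcl14, with 2 counts over the spleen libraries, stood at 48.5 to 58.1 CPM in tumor macrophages and 7.04 to 13.9 CPM in tumor monocytes. Pf4, platelet factor 4, which macrophages as well as platelets can express, had 90.03 to 137 CPM in tumor macrophages, 97.7 to 131 CPM in tumor monocytes and 0 to 0.989 CPM in spleen monocytes, where replicate 3 held nearly all of the counts. Ccl5, which recruits T cells, was the chemokine that fell, with a change of -1.44 log2. Of 26 tested matrix genes, 22 were higher and 2 lower in the whole change, 12 rose in the first step only and 9 peaked. Over all genes these shares were 33.1%, 31.5%, 10.5% and 13.1%. Mmp14, a membrane-bound collagenase, rose by 4.87 ± 0.43 (5.77 without spleen monocyte replicate 3), and Plau, the urokinase plasminogen activator, by 3.71 ± 0.28 in the first step. Fn1, fibronectin, had 10115 to 11679.5 CPM in tumor macrophages, 9094 to 11942 CPM in tumor monocytes and 3681 to 4283 CPM in spleen monocytes. Both tumor populations were above the spleen monocytes and overlapped each other.

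A smaller set changed only between tumor monocyte and macrophage. Cadm1, an adhesion molecule, had 15.97, 18.6, 19.5 and 14.99 CPM in tumor macrophages, 0.176, 0.414, 0.303 and 0.515 CPM in tumor monocytes and 0.194, 0.245, 0.289 and 0 CPM in spleen monocytes. The tumor and spleen monocytes overlapped, and the macrophages stood apart with a second step of 5.51 ± 0.33 log2. Timp2, a metalloproteinase inhibitor, rose by 2.901 ± 0.27 in the second step after -0.297 ± 0.26 in the first, which was not called. Mgl2, a lectin of alternatively activated macrophages, had 44.6, 33.7, 48.5 and 135 CPM in tumor macrophages, 6.07, 6.05, 7.64 and 17.8 CPM in tumor monocytes and 2.65, 3.68, 4.86 and 5.34 CPM in spleen monocytes. Its highest value in each tumor population was in replicate 4, which also held the highest Arg1 in each, and the labels do not say whether those libraries share a mouse.

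Many inflammatory genes peaked in tumor monocytes. Of 25 genes of the NF-kB and inflammatory list, 18 were higher and 3 lower in the first step, 19 were lower in the second, and 13 met both calls of a peak, against 13.1% of all genes (15 without spleen monocyte replicate 3). Among all genes 28.6% were higher and 34% lower in the first step, and 26.3% were lower in the second. Ptgs2, the prostaglandin synthase COX-2, had 191, 272, 181 and 227 CPM in tumor macrophages, 1616, 2030.1, 1764 and 1981 CPM in tumor monocytes and 19.3, 4.99, 50.5 and 11.8 CPM in spleen monocytes. Tumor monocytes were clear of both other populations, with steps of 6.41 ± 0.81 and -3.08 ± 0.69 log2 (edgeR adjusted p 1.3e-06 and 0.000921; first step 7.29 without spleen monocyte replicate 3). Thbs1, thrombospondin 1, a matrix protein of platelets and monocytes, had 4203, 5840.0, 4409 and 5729.6 CPM in tumor macrophages, 25986, 31399.8, 28902 and 32422 CPM in tumor monocytes and 412, 90.8, 729.7 and 80.1 CPM in spleen monocytes. It rose by 6.499 ± 0.68 (7.26 without that library) and then changed by -2.56 ± 0.56, and macrophages stayed above the spleen monocytes by 3.94 ± 0.60 log2 (4.70 without it). Cxcl3, a neutrophil chemokine, had 14.5, 19.6, 8.08 and 29.3 CPM in tumor macrophages, 129, 226, 109 and 309.7 CPM in tumor monocytes and 0.323, 0.0409, 0.412 and 0 CPM in spleen monocytes, where it was near the detection limit. Nos2, inducible nitric oxide synthase, had 2.38, 5.19, 1.59 and 4.46 CPM in tumor macrophages, 27.7, 56.2, 27.2 and 47.7 CPM in tumor monocytes and 0, 0, 4.41 and 0 CPM in spleen monocytes. Its spleen value came from replicate 3 alone, and the whole change of 1.41 ± 0.79 log2 was called only without that library (edgeR adjusted p 0.13 with it and 7.2e-05 without it).

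Several peaks ended below the spleen monocytes or close to them. Met, the receptor of hepatocyte growth factor, had 6.58, 6.76, 3.84 and 6.53 CPM in tumor macrophages, 103, 133, 115 and 130.3 CPM in tumor monocytes and 43.998, 49.8, 47.9 and 47.9 CPM in spleen monocytes. Vcan, the matrix proteoglycan versican, had 99.01, 185, 81.9 and 123 CPM in tumor macrophages, 1283, 1971, 1289 and 1569 CPM in tumor monocytes and 265, 337, 302 and 190.3 CPM in spleen monocytes. In each gene the 3 populations did not overlap, and macrophages were the lowest, with whole changes of -2.98 ± 0.14 and -1.16 ± 0.23 log2. Dmkn, a secreted protein known from skin, had the largest smaller step among the peaks, with 0.974 to 1.55 CPM in tumor macrophages, 31.6 to 38.8 CPM in tumor monocytes and 1.47 to 2.51 CPM in spleen monocytes. Over all 1735 peaks, macrophages were above spleen monocytes in 765, below in 304, and not called different in 666.

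Most interferon response genes peaked in tumor monocytes. Of 44 such genes, 38 were higher in the first step, against 28.6% of all genes, and 43 lower in the second, against 26.3%. A peak was called for 37 of 44, against 13.1% of all genes, and the other 7 comprised 6 falls in the second step only and Ifi44, a rise in the first step only. The list's median was 1.001 log2 in the first step and −1.48 in the second, against −0.05 and 0.06 over all genes. In the whole change 29 were lower and 8 higher in tumor macrophages, with a median of −0.54 (26 lower and 11 higher without spleen monocyte replicate 3). Among all genes 31.5% were lower and 33.1% higher. Rsad2, the antiviral enzyme viperin, had 124, 113, 120.2 and 149 CPM in tumor macrophages, 1034, 914, 1041 and 1127 CPM in tumor monocytes and 65.2, 44.9, 153 and 56.6 CPM in spleen monocytes. Its steps were 3.69 ± 0.30 and -3.03 ± 0.29 log2 (edgeR adjusted p 1.42e-09 and 4.07e-08), and its smaller whole change of 0.66 ± 0.27 lost its call in 8 alternatives. Isg15, a ubiquitin-like modifier, had 66.7, 44.5, 71.2 and 75.01 CPM in tumor macrophages, 382, 311, 404 and 411 CPM in tumor monocytes and 41.3, 47.3, 122 and 40.6 CPM in spleen monocytes, and macrophages and spleen monocytes overlapped. Without spleen monocyte replicate 3, its highest spleen value, the whole change of Isg15 was 0.57 log2 and was called (edgeR adjusted p 0.0062, against 0.93 with it). Irf7, the transcription factor that amplifies type I interferon responses, had 298, 268, 340.2 and 332 CPM in tumor macrophages, 786, 747, 848 and 778 CPM in tumor monocytes and 284, 331, 458 and 280.1 CPM in spleen monocytes. Oas3, an RNA-sensing synthetase, ended lowest relative to the spleen, with a whole change of -1.45 ± 0.11.

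The promoters of 3 of these genes are shown because the interferon-stimulated response element (ISRE), the DNA site of the interferon-activated ISGF3 complex, lies in each. Each line gives the 250 bases before the RefSeq gene start in GRCm38.p6, 5′ to 3′ on the gene's strand, with matches of GAAA, then NN, then GAAA, on either strand in capitals, overlapping matches merged.
Rsad2, chr12:26456453-26456702, minus strand: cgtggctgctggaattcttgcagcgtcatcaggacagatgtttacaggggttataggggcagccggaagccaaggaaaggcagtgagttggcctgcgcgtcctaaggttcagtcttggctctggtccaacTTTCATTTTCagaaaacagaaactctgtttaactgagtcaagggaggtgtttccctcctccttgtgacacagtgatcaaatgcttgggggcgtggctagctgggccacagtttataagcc
Ifit3, chr19:34583279-34583528, plus strand: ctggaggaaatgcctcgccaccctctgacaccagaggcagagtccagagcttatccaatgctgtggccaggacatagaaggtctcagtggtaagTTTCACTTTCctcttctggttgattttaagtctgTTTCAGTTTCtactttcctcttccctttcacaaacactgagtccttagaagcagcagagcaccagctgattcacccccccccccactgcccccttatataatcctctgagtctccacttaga
Isg15, chr4:156200819-156201068, minus strand: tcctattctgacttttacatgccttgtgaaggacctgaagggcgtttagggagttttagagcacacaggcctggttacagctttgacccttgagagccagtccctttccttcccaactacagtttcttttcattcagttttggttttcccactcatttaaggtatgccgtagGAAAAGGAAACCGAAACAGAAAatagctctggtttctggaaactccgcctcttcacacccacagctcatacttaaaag
Ifit3, an RNA-binding antiviral protein, holds 2 matches and the other two genes 1 each. Of the 37 interferon list genes that peaked, 28 had a promoter in the RefSeq table, and 13 of these (46.4%) held a match. The share was 4.85% of the 1381 peak genes with a promoter, 2.94% of 10446 tested genes and 3.05% of 27025 genes in the table. A match describes these letters and does not show binding.

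Genes of glycolysis and the response to low oxygen formed a further block of peaks. Of 30 tested genes, 28 were higher and 2 lower in the first step, 27 were lower in the second, and 26 met the call of a peak. Over all genes these shares were 28.6%, 34%, 26.3% and 13.1%. Unlike the interferon genes, most kept part of their rise: 25 were higher and 3 lower in macrophages than in spleen monocytes, against 33.1% and 31.5% of all genes, with a median of 1.52 log2. Slc2a1, the glucose transporter GLUT1, had 253, 309.6, 258 and 348 CPM in tumor macrophages, 685, 748, 731 and 865 CPM in tumor monocytes and 32.1, 31.7, 50.9 and 23.3 CPM in spleen monocytes. Pgk1, a glycolytic kinase, had 681, 702, 604 and 785 CPM in tumor macrophages, 1364, 1523, 1394 and 1675 CPM in tumor monocytes and 258, 296, 317 and 227 CPM in spleen monocytes. The populations did not overlap in either gene, with steps of 4.45 ± 0.19 and -1.37 ± 0.17 for Slc2a1 and 2.44 ± 0.11 and -1.103 ± 0.10 for Pgk1. Egln3, an oxygen-sensing prolyl hydroxylase, rose by 6.09 ± 0.23 and then changed by -1.67 ± 0.18. Hif1a, the oxygen-regulated transcription factor, peaked at the RNA level as well, with 241 to 349 CPM in tumor macrophages, 634 to 845 CPM in tumor monocytes and 94.6 to 125 CPM in spleen monocytes. Vegfa, the vascular growth factor, rose by 6.95 ± 0.76, and its second step of -1.403 ± 0.60 was called only without spleen monocyte replicate 3 (edgeR adjusted p 0.053 with it and 0.023 without it). Bnip3l, a mitophagy receptor, went against the list and fell in both steps, with changes of -0.66 and -0.57.

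Promoters of 2 glycolytic genes are shown for the hypoxia response core ACGTG, the letters that HIF recognizes; matches on either strand are in capitals, and the window is the same.
Pgk1, chrX:106186850-106187099, plus strand: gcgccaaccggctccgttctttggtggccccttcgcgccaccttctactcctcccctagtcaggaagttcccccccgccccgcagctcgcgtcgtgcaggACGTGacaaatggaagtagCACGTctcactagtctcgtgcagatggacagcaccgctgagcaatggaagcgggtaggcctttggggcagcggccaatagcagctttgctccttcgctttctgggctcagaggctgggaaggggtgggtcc
Ldha, chr7:46845554-46845803, plus strand: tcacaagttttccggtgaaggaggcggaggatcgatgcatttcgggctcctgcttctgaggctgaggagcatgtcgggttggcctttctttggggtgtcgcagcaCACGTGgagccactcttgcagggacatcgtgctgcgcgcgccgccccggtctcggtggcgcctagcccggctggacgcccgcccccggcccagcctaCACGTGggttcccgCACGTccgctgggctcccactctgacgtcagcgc
Pgk1 holds 2 matches and Ldha, lactate dehydrogenase A, 3. Among the 26 list genes that peaked, 24 had a promoter in the table and 12 (50%) held the core, against 25.6% of all peak genes and 21.5% of tested genes.

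Sterol synthesis genes peaked as well. Of 23 tested genes, 18 peaked, 19 were higher in the first step and 19 lower in the second, and the whole change had a median of 0.12 log2 with 9 higher and 4 lower. Over all genes 13.1% peaked, 28.6% were higher in the first step and 26.3% lower in the second. In the whole change 33.1% of all genes were higher and 31.5% lower. Sqle, squalene epoxidase, had 34.9, 35.1, 37.7 and 32.9 CPM in tumor macrophages, 62.1, 59.4, 62.9 and 58.5 CPM in tumor monocytes and 14.6, 18.7, 17.1 and 17.2 CPM in spleen monocytes. Tumor monocytes were highest without overlap, and macrophages stayed above the spleen monocytes. Mvd, mevalonate decarboxylase, fell in both steps. Dhcr7, the last enzyme of one branch, dipped, but its first step of -0.36 ± 0.13 log2 was not called without spleen monocyte replicate 3 (-0.30, edgeR adjusted p 0.069).

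Genes of dividing cells dipped in tumor monocytes. Of 32 cell cycle genes, 27 dipped, against 14.7% of all genes, 27 were lower and 3 higher in the first step, and 31 were higher in the second. Among all genes 34% were lower and 28.6% higher in the first step, and 29.2% were higher in the second. Mki67, the antigen Ki-67 of cycling cells, had 92.6, 88.6, 104 and 58.98 CPM in tumor macrophages, 10.04, 11.4, 13.5 and 10.2 CPM in tumor monocytes and 54.3, 73.7, 80.3 and 69.9 CPM in spleen monocytes. Tumor monocytes lay below both others without overlap, with steps of -2.63 ± 0.33 and 2.93 ± 0.33 log2, while macrophages and spleen monocytes overlapped (whole change 0.31 ± 0.29, edgeR adjusted p 0.37). Top2a, DNA topoisomerase II alpha, had 44.9, 34.5, 56.3 and 33.8 CPM in tumor macrophages, 8.72, 5.69, 7.34 and 6.75 CPM in tumor monocytes and 24.1, 31.6, 38.04 and 37.4 CPM in spleen monocytes. In the whole change 21 of the 32 genes were higher and 1, Aurkb, lower in macrophages, against 33.1% and 31.5% of all genes. Replication licensing genes ended above the spleen level: Mcm6 had 91.3, 73.5, 98.9 and 68.9 CPM in tumor macrophages, 17.3, 16.9, 16.1 and 12.2 CPM in tumor monocytes and 23.0003, 24.1, 25.5 and 22.7 CPM in spleen monocytes. Replicate 4 of the tumor macrophages was the lowest of its group for Mki67 and Top2a.

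The 250 bases before Top2a and Mki67 are shown for the CCAAT box, the site of NF-Y, and the cell cycle homology region (CHR), here TTTGAA, through which the DREAM and MuvB complexes act on cell cycle genes. Matches of CCAAT or TTTGAA on either strand are in capitals.
Top2a, chr11:99024190-99024439, minus strand: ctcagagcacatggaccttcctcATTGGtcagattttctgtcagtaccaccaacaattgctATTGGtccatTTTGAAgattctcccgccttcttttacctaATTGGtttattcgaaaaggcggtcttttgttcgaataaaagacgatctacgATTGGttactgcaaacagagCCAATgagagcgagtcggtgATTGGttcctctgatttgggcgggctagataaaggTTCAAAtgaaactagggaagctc
Mki67, chr7:135716380-135716629, minus strand: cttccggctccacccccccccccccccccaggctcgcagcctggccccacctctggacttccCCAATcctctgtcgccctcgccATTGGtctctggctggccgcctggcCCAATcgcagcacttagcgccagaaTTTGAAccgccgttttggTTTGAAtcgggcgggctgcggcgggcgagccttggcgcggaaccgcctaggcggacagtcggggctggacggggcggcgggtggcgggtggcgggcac
Top2a holds 6 CCAAT and 2 CHR matches, and Mki67 3 and 2. Of the 27 list genes that dipped, 22 had a promoter in the table; 19 (86.4%) held a CCAAT box, 13 (59.1%) held 2 or more, and 9 (40.9%) held a CHR. Among 10446 tested genes the shares were 37.4%, 13.9% and 11.2%, and among the 1574 dip genes with a promoter 43.5%, 17.7% and 13.2%.

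MHC class II genes, which present antigen to CD4 T cells, also dipped. Of 10 such genes, 7 dipped, 8 were lower in the first step and 7 higher in the second, and in the whole change 7 were higher and 2 lower in macrophages. Over all genes these shares were 14.7%, 34%, 29.2%, 33.1% and 31.5%. H2-Eb1, a class II beta chain, had 1366, 1063, 1794 and 2076 CPM in tumor macrophages, 374, 356, 398 and 323 CPM in tumor monocytes and 455, 486, 594 and 432 CPM in spleen monocytes. It rose by 2.12 ± 0.17 in the second step, while the first step of -0.44 ± 0.17 was not called without spleen monocyte replicate 3 (-0.33, edgeR adjusted p 0.11). Without that library 6 of the 10 genes were lower in the first step. Ciita, the master regulator of class II transcription, had 80.6, 78.5, 89.2 and 108 CPM in tumor macrophages, 47.7, 40.5, 42.5 and 40.5 CPM in tumor monocytes and 128, 169, 175 and 116 CPM in spleen monocytes. Ciita thus ended below the spleen level, with a whole change of -0.73 log2. It was 1 of the 2 list genes that did, while 7 of the 10 ended above that level. The summed level of 15 dendritic cell markers was 356.3 to 382.6 CPM in tumor macrophages, 412.7 to 455.4 CPM in tumor monocytes and 584.9 to 610.7 CPM in spleen monocytes, so the sum was lowest in macrophages. By member, 6 of the 15 rose and 2 fell in the second step, against 29.2% and 26.3% of all genes, with a median of 0.67 log2. Ccr7, the homing receptor of mature dendritic cells, had 2.39 to 6.78 CPM in tumor macrophages, 0.4402 to 1.29 CPM in tumor monocytes and 0.388 to 1.34 CPM in spleen monocytes, and Clec9a, a receptor of cross-presenting dendritic cells, rose by 3.21 ± 0.54 log2 in the second step at no more than 1.16 CPM in macrophages. The part of dendritic cell RNA in the class II values was not tested.

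Other dips included receptors and regulators of patrolling monocytes. Cx3cr1, the fractalkine receptor, had 523, 525, 532 and 390.3 CPM in tumor macrophages, 243, 229, 249 and 129 CPM in tumor monocytes and 680.2, 624, 661 and 674 CPM in spleen monocytes. Replicate 4 was the lowest of each tumor group, and tumor monocytes lay below both other populations without overlap. Klf2, a transcription factor that keeps lymphocytes and monocytes quiescent, had 366, 333, 333 and 427 CPM in tumor macrophages, 134, 114, 139 and 142 CPM in tumor monocytes and 446, 237, 237 and 395 CPM in spleen monocytes. Cd300e, an activating receptor of nonclassical monocytes, had 34.4, 35.2, 29.3 and 32.8 CPM in tumor macrophages, 5.898, 6.31, 5.45 and 3.95 CPM in tumor monocytes and 16.4, 23.1, 25.3 and 18.04 CPM in spleen monocytes. Over all 1941 dips, macrophages were above spleen monocytes in 392, below in 602, and not called different in 947.

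**Figure D4:**
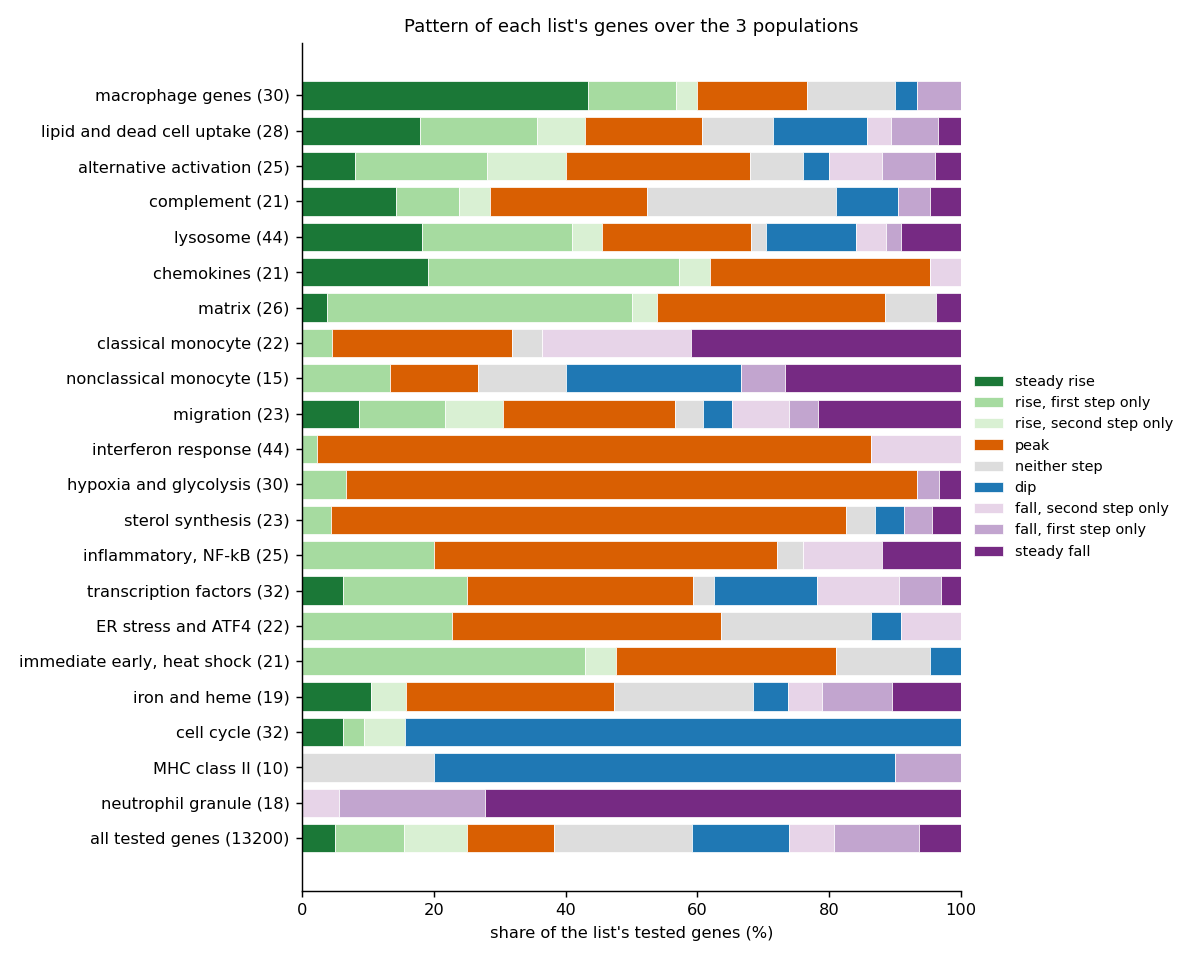
Share of each list's tested genes (number in brackets) in each pattern over the 3 populations, with all 13200 tested genes at the bottom; dark green and purple are steady changes, orange peaks, blue dips and pale colors changes in 1 step. Interferon, glycolysis and sterol genes are mostly orange, cell cycle and MHC class II genes mostly blue, and macrophage and neutrophil granule genes hold the largest shares of dark green and purple.

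Lysosomal genes showed no common course. Of 44, 28 were higher and 10 lower in the whole change, but 16 were higher and 16 lower in the second step (20 and 7 with upper quartile scaling). Over all genes 33.1% were higher and 31.5% lower in the whole change, and 29.2% and 26.3% in the second step. Ctsk, cathepsin K, had 21.8 to 44.4 CPM in tumor macrophages, 2.403 to 5.15 CPM in tumor monocytes and 0.452 to 1.34 CPM in spleen monocytes, and rose steadily. Ctsl, cathepsin L, rose in the first step only, by 4.03 ± 0.26. Psap, prosaposin, the activator of sphingolipid breakdown, fell in both steps to 4230.3 to 4645 CPM in tumor macrophages, against 5783 to 6683 CPM in tumor monocytes and 9694 to 11197 CPM in spleen monocytes.

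Among 32 transcription factors, 19 were higher and 9 lower in the whole change, and 11 peaked, where the shares over all genes were 33.1%, 31.5% and 13.1%. Maf, which helps establish macrophage identity, rose in the first step by 3.32 ± 0.18 log2, and its second step of -0.34 ± 0.16 was not called. Spi1, which encodes PU.1, changed little, with -0.36 ± 0.09 log2 over the whole change. Cebpa, a factor of myeloid progenitors, dipped, with 182 to 210.5 CPM in tumor macrophages, 72.2 to 91.5 CPM in tumor monocytes and 103 to 150.1 CPM in spleen monocytes. Irf4, a factor of lymphoid and dendritic cells, dipped, with a whole change of -2.06 log2.

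Immediate early and heat shock genes, which respond to tissue handling, were examined because digestion of a tumor and of a spleen can differ. Of 21, 17 were higher and 1 lower in the whole change, with a median of 1.39 log2, and 16 were higher in the first step. Over all genes these shares were 33.1%, 31.5% and 28.6%. Fos, a rapidly induced transcription factor, had 2423, 2696, 2465 and 2935 CPM in tumor macrophages, 4201, 4200.0, 4335 and 4088 CPM in tumor monocytes and 370.0, 415, 674 and 708 CPM in spleen monocytes. The heat shock genes Hspa1a and Hspa1b were not called in the whole change (0.64 ± 0.37 and 0.47 ± 0.41 log2). The part of handling in the differences between tumor and spleen libraries was not tested.

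The genes of each pattern were looked up in bone marrow monocytes cultured with LLC supernatant against control culture, samples that played no part in defining the patterns. In those libraries 68.4% of 12603 genes were called, 4068 (32.3%) higher and 4547 (36.1%) lower with the supernatant. Of 833 steady falls tested in both, 643 (77.2%) were lower and 70 (8.4%) higher. Of 640 steady rises, 390 (60.9%) were higher and 94 (14.7%) lower. Turning genes were split: 837 (49.2%) of 1700 peaks were higher and 462 (27.2%) lower, and 504 (26.2%) of 1927 dips were higher and 854 (44.3%) lower. Genes called in 1 step only also leaned the same way as in the tumor. With a rise in the first step only 53.5% were higher and 16.3% lower, and in the second step only 42.3% and 24.2%. With a fall in the first step only 14.2% were higher and 55.8% lower, and in the second step only 19.5% and 50.9%. Over the 12294 genes tested in both, 32.2% were higher and 36.4% lower.

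**Figure D5:**
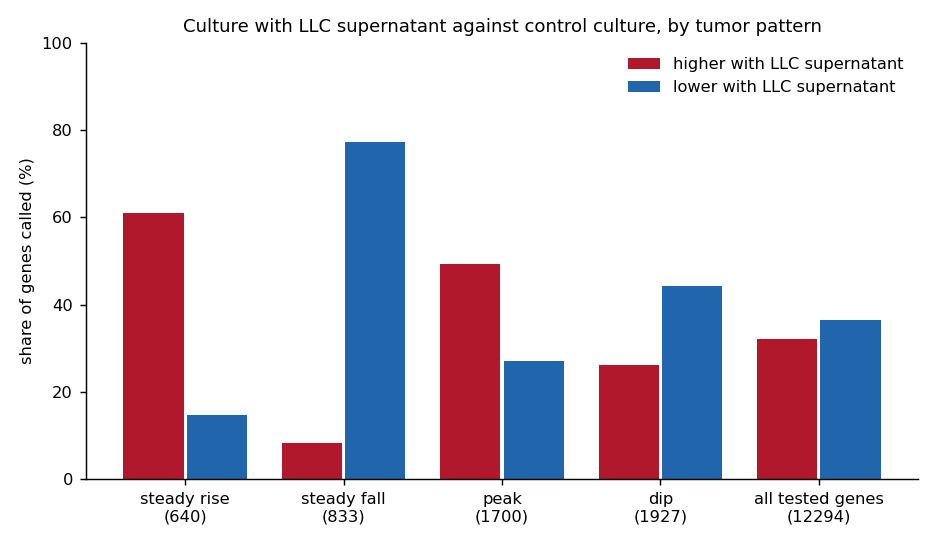
Bars give the share of genes called higher (red) or lower (blue) in monocytes cultured with LLC supernatant than in control culture, for each tumor pattern and for all genes tested in both (numbers in brackets). The steady falls stand out at 77.2% lower, and the steady rises at 60.9% higher.

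Control culture 2 stood apart: 369 genes exceeded 3 times the highest of the other controls (values plus 1 CPM), against at most 3 genes in the other controls. Without it 664 (79.7%) of 833 steady falls were lower and 423 (66%) of 641 steady rises higher, and over all genes 35.1% were higher and 39% lower.

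The blocks within the peaks and dips differed in culture. For comparison, 32.2% of all genes tested in both were higher and 36.4% lower, and 35.1% and 39% without control culture 2. Of 30 hypoxia and glycolysis genes, 28 were higher with LLC supernatant and 1 lower, and of 22 sterol synthesis genes 21 were higher. Pgk1 had 2674, 2653 and 2614 CPM with LLC supernatant, against 366, 524, 352 and 338 CPM in control cultures. Of 44 interferon response genes 20 were higher and 12 lower, with a median of 0.22 log2 (19 higher and 15 lower without control culture 2). Isg15 had 23.97, 19.01 and 21.2 CPM with LLC supernatant, against 10.5, 9.403, 12.2 and 8.86 CPM in control cultures. Of 32 cell cycle genes 29 were lower and 2 higher, and of 10 MHC class II genes 9 were lower. Mki67 had 343, 386 and 383 CPM with LLC supernatant, against 1478, 1334, 1731 and 1681 CPM in control cultures. C1qa, a steady rise in the tumor, had 294, 295 and 295 CPM with LLC supernatant, against 0.0366, 0.212, 0.201 and 0.105 CPM in control cultures.

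The same whole change was compared between mice with LLC and with MC38 tumors by a test of the difference. At an adjusted p under 0.05, 2939 genes (22.3%) changed more in the upward direction with LLC than with MC38, and 2828 (21.4%) more in the downward direction. Adipoq, a hormone of fat cells, had 433, 380 and 686 CPM in replicates 1, 2 and 3 of the MC38 spleen monocytes, against 0.132 CPM in replicate 4 and at most 0.194 CPM in the LLC spleen monocytes. Without those 3 libraries the MC38 spleen monocytes are 1 library, assumed to vary like the other groups. The largest positive difference among named genes, that of Slco2b1, an organic anion transporter, was 13.16 ± 1.41 log2 with them and 5.73 without (edgeR adjusted p 0.26). Among the largest negative ones was Ccl5, with -5.25 ± 0.36 (-5.46 without them), as it changed by -1.44 ± 0.26 log2 with LLC and 3.81 ± 0.26 with MC38. Of 44 interferon genes 43 had a lower LLC than MC38 change, and 41 without those libraries. Isg15 changed by 0.03 ± 0.28 log2 with LLC and 3.37 ± 0.30 with MC38, a difference of -3.34 ± 0.40 (-3.25 without those libraries). In MC38 tumor macrophages Isg15 had 469.5, 514, 468 and 392 CPM, against 59.7, 37.1, 34.1 and 47.3 CPM in MC38 spleen monocytes. Cell cycle genes were lower in 31 of 32 (30 without those libraries): Mki67 changed by 0.31 ± 0.29 log2 with LLC and 2.95 ± 0.31 with MC38, a difference of -2.64 ± 0.42 (-1.59 without those libraries). Sterol synthesis genes went the other way, with 16 of 23 higher and 2 lower in the LLC change (15 and 1 without those libraries). C1qa did not differ by the call, at 0.24 ± 0.88 log2 (edgeR adjusted p 0.86), whereas Fn1 changed by 1.41 ± 0.11 log2 with LLC and -3.35 ± 0.12 with MC38, a difference of 4.76 ± 0.17 (4.96 without those libraries).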

How the data were processed

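RNA was extracted with TRIzol from sorted cells, and 100 ng were made into libraries with a KAPA stranded mRNA-seq kit, per the labels' protocols. The authors deposited 1 table of expected counts per gene; the submitters' processing notes name CASAVA 1.8.2 and the mouse build GRCm38 (mm10), and which aligner and counter were used is not given in the sources used here. Of the values, 14.62% were not whole and all were rounded before testing. RefSeq symbols matched 24375 of 24475 gene identifiers, and the unmatched 100 held 1.433% of the counts.

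The 24 in vivo libraries were fitted together in edgeR 4.0.16 (R 4.3.3; default expression filter, TMM scaling, robust quasi-likelihood F test, Benjamini-Hochberg adjustment over 13200 genes), so that all groups share 1 estimate of the spread, and the 10 cultures in a fit of their own over 12603 genes. A standard error is the log2 change over the square root of F. DESeq2 1.42.0 and the other alternatives are described at the end. The fits were also run on simulated counts with 1 fixed spread and equal levels between groups for nearly all genes. Such counts cannot show how far the peaks and dips depend on scaling. Figures used matplotlib 3.10.9.

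The groups and gene lists were chosen with earlier results of these data known, so counts over a list carry no p-value. The genes named are the largest changes of each comparison and pattern (at least 10 CPM, no overlap between libraries), from each list its best-ranked genes by adjusted p and its peaks and dips, the sorting genes and the most abundant markers of other cells. Adipoq, Apoe, Bhlhe41, Bnip3l, C1qb, C1qc, C3ar1, Ccnd2, Ccr7, Cd81, Cdh1, Clec9a, Ctsk, Ctsl, Cxcl16, Hspa1a, Hspa1b, Ly6g, Mertk, Mgl2, Mmp14, Plau, Spi1, Timp2 and Vegfa were named after their values were seen. Counting intervals are exact at 95% and, like the floor of 3 counts, cover counting error only. A few genes are not reported here.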

Additional observations from a re-analysis of the deposited data

Results flagged for a closer look

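Within groups of 4 libraries, 174 groups of values were examined for a library far from the other 3, by the gap to its nearest neighbor over the whole range. There were 25 such values, 14.37% of the groups. The cut used is one that about 1 in 20 groups of independent, normally spread values would pass. That rate does not apply here, as the genes were chosen, share the same 12 libraries and can have counts in a single library only. The share is therefore no test against chance. Most came from 2 replicate numbers. Spleen monocyte replicate 3 was the highest of its group for C1qa (44.02 CPM), Spp1 (19.91 CPM), Arg1 (8.903 CPM), Nos2 (4.41 CPM), Mertk (3.751 CPM), Pf4 (0.9892 CPM), Ly6a (69.99 CPM) and Isg15 (121.5 CPM). The part of tumor macrophage RNA or of a different state in that library was not tested.

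Replicate 4 of the tumor macrophages was the highest for Ace (32.04 CPM), Cdh1 (139.9 CPM), Itgal (126 CPM) and Mgl2 (134.7 CPM) and the lowest for Cx3cr1 (390.3 CPM). Replicate 4 of the tumor monocytes was likewise the highest for Mgl2 (17.79 CPM) and the lowest for Cx3cr1 (129.4 CPM), and the highest for Psap (6683 CPM). Other single libraries stood apart for 1 or a few genes. Tumor macrophage replicate 3 was lowest for Mertk (43.59 CPM) and Met (3.842 CPM), tumor macrophage replicate 2 was highest for Fn1 (11679.5 CPM), tumor monocyte replicate 1 was lowest for Ccr7 (0.4402 CPM), tumor monocyte replicate 2 was lowest for Ly6a (29.48 CPM), and spleen monocyte replicate 1 was lowest for Ace (1652 CPM). The values of Camp in tumor macrophage replicate 3 (0.06625 CPM) and tumor monocyte replicate 2 (0.05172 CPM), and of Cspg4 in spleen monocyte replicate 1 (0.1938 CPM), are single libraries among libraries with none, with 1 count each for Camp and 3 for Cspg4.

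The change of tumor macrophages over spleen monocytes differed between the tumor lines by a test of the difference in edgeR, with 2939 genes higher and 2828 lower in the LLC than in the MC38 change. Among the genes described, Slco2b1 differed by 13.16 log2, Fn1 by 4.765, Ccl5 by -5.249, Isg15 by -3.341 and Mki67 by -2.641. Leaving out the 3 MC38 spleen libraries with fat cell transcripts, which leaves 1 MC38 spleen library, ended the call of Slco2b1 among these 5 genes and moved Mki67 to -1.59.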

How the results depend on the processing

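The counts of called genes stayed within 1.5 times of the reported ones under other scaling (RLE, upper quartile), other filters, DESeq2, fits of the compared groups alone, the replicate block and each left-out library, with 2 exceptions. A filter of at least 5 CPM in 3 libraries, which tests fewer genes, left 297 dips of at least 2-fold, against 446. Without the 3 MC38 spleen libraries with fat cell transcripts, which leaves 1 library in that group, 3464 genes differed between the LLC and MC38 changes, against 5767. Peaks and dips moved in opposite ways with scaling: 1293 peaks and 2733 dips with upper quartile, 1989 and 1721 with RLE, and 2032 and 1739 with DESeq2. Rises made up 45.7% of the first step calls, and 38.9% to 49.6% over the alternatives.

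Leaving out 1 library at a time gave 8000 to 8302 genes for the whole change, 7692 to 7946 for the first step and 6583 to 7083 for the second. It gave 494 to 608 steady rises, 748 to 837 steady falls, 1541 to 1712 peaks and 1643 to 1903 dips, and at 2-fold 143 to 169, 124 to 144, 355 to 389 and 427 to 452. It gave 5394 to 6883 genes for the difference between tumor lines and 7616 to 9244 in culture. The MC38 spleen libraries with fat cell transcripts share the estimate of the spread. Leaving them out together raised the counts of steady rises, steady falls, peaks and dips without a fold cut. Of 994 called changes of single genes, 922 kept their call in every alternative they could be tested in, 72 lost it at least once and 0 changed sign.

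With the replicate block the whole change had 8432 calls, the first step 8155, the second 7282, the difference 5524 and culture 7920, with 627 steady rises, 844 steady falls, 1756 peaks and 1910 dips. Deviations of same-numbered libraries correlated at -0.0567 to 0.154, with 1 of 12 pairs over 0.1, and those of other pairs at -0.122 to 0.0768. Between tumor macrophages and tumor monocytes the same-numbered pairs 1 to 4 had -0.0273, 0.154, 0.0619 and 0.05. These values do not settle whether equal numbers share a mouse, and the main fits treat the libraries as unpaired. Groups of 4 libraries limit the precision, and values under about 0.2 CPM rest on a few counts.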
